A study of Mus musculus with 300 samples.

Results

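Immediate early genes are the first genes that many cells switch on after a stimulus, because their transcription needs no new protein. The set described here holds 10 of them, Fos, Fosb, Jun, Junb, Egr1, Egr2, Ier2, Zfp36, Dusp1 and Atf3, out of 23354 gene rows. They were chosen by name, and their values were followed in single cells, by quartile of reporter brightness and by preparation. The data are full-length single-cell RNA-seq values (Fluidigm C1, SMARTer chemistry) of 300 spermatogonia from untreated adult mice that all carry the ID4-EGFP reporter. ID4 inhibits DNA binding of basic helix-loop-helix factors and marks the stem cell end of the spermatogonial pool. The question is how the genes differ from the brightest quartile of EGFP, Q1, to the dimmest, Q4. From Q1 to Q4 the quartiles held 79, 78, 71 and 72 cells, spread over 4 preparations of pooled mice with 67, 82, 71 and 80 cells. All cells, in every quartile, went through collagenase and trypsin digestion of the testis, Percoll enrichment and a sort for bright CD9 and EGFP. No sample analysed here skipped the digestion, and the mouse strain is not given in the sources used here.

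Growth factor receptors start this response through the kinases RAS, RAF, MEK and ERK. ERK phosphorylates ternary complex factors such as ELK1, which sit with SRF on CArG boxes in promoters, while the factor CREB binds cyclic AMP response elements (CRE) in the same promoters. In the testis, GDNF from Sertoli cells acts on spermatogonial stem cells through the receptors GFRA1 and RET. Enzymatic digestion of a tissue at warm temperature is also known to induce immediate early genes together with heat shock genes. The products fall into AP-1 transcription factors (Fos, Fosb, Jun, Junb and the related Atf3), zinc finger factors (Egr1 and Egr2), the nuclear protein Ier2, and 2 genes that shut the response down. Of the latter, Zfp36 encodes a protein that speeds the decay of AU-rich mRNA and Dusp1 a phosphatase that inactivates MAP kinases.

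Sequence just before the start site is shown for the 3 genes that rose towards bright cells in the test of trend given further on, Fos, Egr2 and Zfp36, and for Dusp1, whose values followed those of Fos most closely from cell to cell. The sequences are from RefSeq (GRCm38.p6), 5′ to 3′ on the strand of the gene, with motif matches in capitals. Fos is on chromosome 12 at 85473890 to 85477273, Egr2 on chromosome 10 at 67535475 to 67542188, Zfp36 on chromosome 7 at 28376784 to 28380253 and Dusp1 on chromosome 17 at 26505590 to 26562128 (GRCm38, GENCODE vM21, gene bounds). Each printed stretch lies upstream of a RefSeq start site, which for Egr2 is 1 of 5 listed. In GENCODE the Fos stretch ends at the base before the gene, those of Egr2 and Dusp1 lie within the gene bounds but in no exon, and that of Zfp36 falls in the first exon of a longer transcript.
Fos, chr12:85473740-85473889 (+): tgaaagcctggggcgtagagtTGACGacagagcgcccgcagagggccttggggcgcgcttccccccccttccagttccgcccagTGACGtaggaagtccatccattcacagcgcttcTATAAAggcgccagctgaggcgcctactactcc
Egr2, chr10:67537719-67537868 (+): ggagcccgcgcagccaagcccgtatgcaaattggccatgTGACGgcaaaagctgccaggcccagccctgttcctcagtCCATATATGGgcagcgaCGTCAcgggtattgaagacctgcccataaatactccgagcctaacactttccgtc
Zfp36, chr7:28379267-28379296 (-): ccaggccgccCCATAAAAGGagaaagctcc
Dusp1, chr17:26508597-26508626 (-): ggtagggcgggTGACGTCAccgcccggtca
The Fos stretch holds 2 copies of the CRE half-site TGACG and 1 TATA box, Egr2 a CArG box between 2 half-sites on opposite strands, Zfp36 a CArG box and Dusp1 the full CRE TGACGTCA.

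Of the 10 genes, 8 had an entry in the promoter table, and the 250 bases before each start were searched on both strands. A gene was counted if any of its start sites had a match, while the shares over all genes are of single windows. Egr2 had several start sites, and so more windows to match in. TGACG, which is also part of the full CRE, was found in 6 of the 8 (Fos, Fosb, Junb, Egr2, Dusp1 and Atf3), against 17.8% of 32851 windows of all genes. Within these bases a CArG box was found in Egr2 and Zfp36, against 1.47% of windows, and TGACGTCA in Dusp1, against 1.55%. Sequence farther upstream was not searched for any gene, and Egr1 and Ier2 had no entry. The ETS core CCGGAA was in Egr2 and Zfp36 (12.03% of windows), the EGR site GCGNGGGCG in Fosb and Zfp36 (4.70%), TATAAA in Fos (12.4%) and the AP-1 site TGANTCA in none of the 8 (6.75%). These matches describe letters only, and no binding was measured.

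The label of the cells was borne out by germ cell markers. All 300 cells held at least 3 of 9 spermatogonial markers at 5 FPKM or more. Dazl and Ddx4, which encode germ cell RNA-binding proteins, stood at 1 FPKM or more in 300 and 299 cells. Others of the 9 were rarer, with Lin28a in 202 cells, Gfra1 in 174 and Utf1 in 60. Uchl1, in 300 cells, fell towards bright cells (slope -0.25, adjusted p = 0.00255, limma). FPKM are fragments scaled to gene length and library size, so levels can be set side by side between genes. Within the 300, 9 cells stood apart, with at least 3 of 10 macrophage or leukocyte markers at 5 FPKM or more beside their germ cell transcripts. Their median was 1326 FPKM for the lysozyme gene Lyz2, against 0 in the other 291 cells, and 904 against 1069 FPKM for Dazl. It was 133.9 against 298.6 FPKM for Ddx4, 140.1 against 216.6 for Sall4 and 355.7 against 389.5 for Uchl1. From Q1 to Q4 the quartiles held 1, 3, 2 and 3 of them, and 6 of the 9 were in preparation 3. The summed FPKM of the 10 macrophage markers, averaged over cells, ran over preparations from 32.1 to 601 in Q1, from 7.73 to 1340 in Q2, from 8.72 to 305 in Q3 and from 10.2 to 337 in Q4, and each marker was detected in some cell. Of 8 Sertoli markers, Cldn11 and Fshr stood under 1 FPKM in every cell, as did Cyp17a1, Hsd3b1 and Hsd17b3 of 6 Leydig markers, and no cell held 3 markers of either type at 5 FPKM. The other markers of both types were detected, with Sox9, Clu and Rhox5 of Sertoli cells in 22 cells each and Star of Leydig cells in 36. Any of 6 endothelial markers was at 1 FPKM or more in 52.3% of cells, and no cell held 3 at 5 FPKM. Of these, Egfl7 was detected in 90 cells and Flt1 in 65, and the others in 8 to 21. By the same rule 1 cell of Q4 held peritubular myoid markers, and 49 cells (15, 11, 16 and 7 from Q1 to Q4) held 3 of 8 markers of pachytene cells and spermatids. Of the 6 of these that were tested, the spermatid gene Tnp1 rose towards bright cells (slope 0.59, adjusted p = 0.00617, limma) and the other 5 did not pass, with slopes from -0.20 to 0.04. The part of these transcripts in the results was not tested. Relative sequencing depth, recovered from the low values, was 1.02 ± 0.14 for Q1 and 1.01 ± 0.12 for Q4 (SD, n = 4). Genes at 1 FPKM or more averaged 4368 per cell in preparation 1 and 5572 to 6216 in the other 3. By quartile, the mean of the 4 preparations went down from 5687 ± 697 and 5485 ± 889 for Q1 and Q2 to 5426 ± 851 and 5356 ± 810 for Q3 and Q4 (SD), with Q1 above Q4 in preparations 1 to 3 and below it in preparation 4.

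The immediate early genes differed widely in how often and how strongly they were seen. Egr1 was at 1 FPKM or more in 267 of 300 cells (89%, Wilson 95% interval 84.95 to 92.06), Fos in 230 (76.7%, 71.6 to 81.1) and Dusp1 in 226 (75.3%, 70.2 to 79.9). Egr2 was found in 144 cells, Zfp36 in 134 and Jun in 133, so close to every other cell. Fosb in 66, Ier2 in 58, Atf3 in 24 and Junb in 15 cells (5.0%, 3.05 to 8.09) were rare. These intervals cover counting error only, and a gene listed at 0 in a cell may still have been expressed there. Mean FPKM over the 4 preparations was 155 ± 57.7 for Egr1, 99.2 ± 15.8 for Fos and 84.3 ± 21.2 for Dusp1 (SD, n = 4). It was 20.0 ± 8.76 for Zfp36, 17.6 ± 5.43 for Egr2, 7.25 ± 7.56 for Atf3, 5.83 ± 2.74 for Ier2, 4.90 ± 3.20 for Jun, 2.26 ± 2.03 for Fosb and 1.25 ± 0.88 for Junb. In this order, the step from Dusp1 to Zfp36 and the step from Egr2 to Atf3 exceeded the SD of both neighbours, and every other pair of neighbours lay within the SD of at least 1 of them.

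A small number of cells carried much of the rarer transcripts. The 15 highest cells held 99.0% of all Junb FPKM and 95.5% of Atf3, but 23.5% of Egr1 and 26.5% of Fos. The 9 cells with macrophage transcripts held 63.02% of all Atf3 FPKM, 55.5% of Junb, 42.5% of Fosb, 22.2% of Jun, 18.1% of Ier2 and 16.1% of Zfp36. Their part was smaller for Dusp1 (9.50%), Fos (8.62%), Egr1 (4.33%) and Egr2 (1.53%). Jun was detected in 9 of these 9 cells and in 124 of the other 291, Fosb in 8 and 58, and Atf3 in 6 and 18.

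Egr2, Fos and Zfp36 rose with reporter brightness by their slope over the quartiles. Mean log2(FPKM + 1) of Zfp36 was highest in Q2, at 2.43, 2.65, 1.89 and 1.12 from Q1 to Q4. Egr2, a zinc finger transcription factor, gained 0.88 per quartile towards bright cells on the log2(FPKM + 1) scale (SE 0.12, adjusted p = 3.73e-05). Fos, the AP-1 subunit, gained 0.73 (SE 0.14, adjusted p = 0.00183), and Zfp36 gained 0.47 (SE 0.12, adjusted p = 0.0272). These come from limma fitted to the mean of each preparation and quartile for 10411 genes, adjusted by Benjamini-Hochberg over all of them. So 3 of the 8 immediate early genes that passed the filter on low values (1 FPKM in 30 cells) rose and 0 fell, while 3.77% of all tested genes rose and 0.74% fell. The median slope was 0.34 for the 8 genes and 0.03 for all tested genes. Junb and Atf3 were below the filter. Centring each mean on its median gene moved the median slope of all genes to -0.02 and the share of rising genes among those called from 83.6% to 54.4%, and Zfp36 lost its call there. Without the 9 cells with macrophage transcripts the slopes were 0.92 for Egr2, 0.71 for Fos and 0.50 for Zfp36 (SE 0.12, 0.14 and 0.12; adjusted p = 1.89e-05, 0.00224 and 0.0173). The call of Egr2 was kept in all 13 alternatives that tested it, that of Fos was lost in 2 of 14 (with genes detected as a covariate, slope 0.54, adjusted p = 0.103, and for the log2 of mean FPKM, slope 0.39, adjusted p = 0.0543) and that of Zfp36 in 9 of 13, among them with that covariate (slope 0.45, adjusted p = 0.159) and without preparation 1, 2 or 3.

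**Figure D1:**
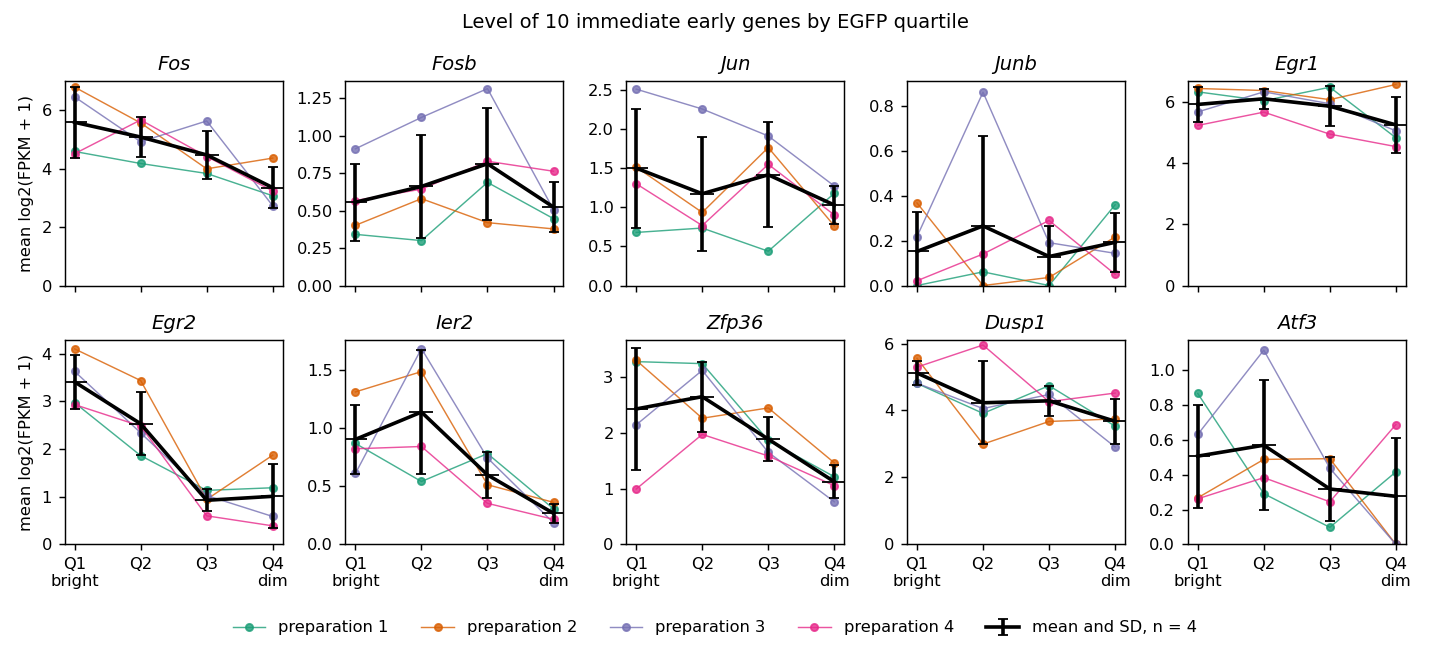
Mean log2(FPKM + 1) of each of the 10 genes (vertical axis, scaled per gene) against EGFP quartile from bright Q1 to dim Q4. Coloured points are the 4 preparations, and black marks are their mean and SD. Fos, Egr2, Ier2 and Dusp1 have every Q1 point above every Q4 point, while Fosb is at 0.56 in Q1, highest at 0.81 in Q3 and at 0.52 in Q4.

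Among the AP-1 genes, Fos rose. Its mean log2(FPKM + 1) in preparations 1 to 4 was 4.59, 6.80, 6.46 and 4.52 in Q1 and 4.18, 5.57, 4.93 and 5.68 in Q2. It was 3.84, 4.0, 5.64 and 4.42 in Q3 and 3.08, 4.37, 2.73 and 3.24 in Q4. Every preparation was higher in Q1 than in Q4, and the 2 groups did not overlap. The difference between Q1 and Q4 was 2.24 (SE 0.44, adjusted p = 0.00405, limma). That call was lost without the preparation block, without preparation 3, with detected genes as a covariate and for the log2 of mean FPKM (adjusted p from 0.00305 to 0.178 over 14 alternatives). Fosb, a partner of Jun like Fos, stood at 0.56, 0.66, 0.81 and 0.52 from Q1 to Q4 (slope -0.01, SE 0.06, adjusted p = 0.973). Jun, the most common AP-1 dimer partner, stood at 1.502, 1.17, 1.42 and 1.03 (slope 0.12, SE 0.10, adjusted p = 0.579). Neither passed, and their Q1 and Q4 values overlapped, from 0.68 to 2.51 against 0.76 to 1.27 for Jun. Junb and Atf3, fitted without the filter, had slopes of 0.00 and 0.09 (SE 0.05 and 0.07; adjusted p = 0.992 and 0.575). The slopes of Fos and of the other AP-1 genes were not tested against each other.

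Of the zinc finger genes, Egr2 rose and Egr1 did not pass. Egr2 stood at 2.97, 4.10, 3.63 and 2.93 in preparations 1 to 4 in Q1, and at 1.86, 3.44, 2.34 and 2.48 in Q2. In Q3 it was 1.13, 0.94, 1.03 and 0.60, and in Q4 it was 1.19, 1.87, 0.59 and 0.39. Values were high in Q1 and Q2 and low in Q3 and Q4, apart from preparation 1 in Q2 and preparation 2 in Q4, which met at 1.86 and 1.87. The lowest preparation in Q1 was above the highest in Q4. Q1 exceeded Q4 by 2.40 (SE 0.34, adjusted p = 0.000103, limma), a call kept in all 13 alternatives. Egr1, the most widely detected of the set, stood at 5.91 ± 0.57, 6.10 ± 0.33, 5.86 ± 0.65 and 5.24 ± 0.91 from Q1 to Q4 (SD, n = 4). Its slope of 0.22 (SE 0.10, adjusted p = 0.243) and its difference of 0.67 (SE 0.32, adjusted p = 0.291) did not pass, and in preparation 2 the highest quartile was Q4. The difference between the slopes of Egr1 and Egr2 was not tested.

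Ier2, Zfp36 and Dusp1 had higher means in Q1 than in Q4, by differences that did not pass. Zfp36 was 3.28, 3.31, 2.15 and 0.99 in Q1 and 1.21, 1.46, 0.76 and 1.05 in Q4, so preparations 1 to 3 were higher in Q1 while preparation 4 was level. Its gap of 1.31 (SE 0.38) had an adjusted p of 0.0553. It passed in 4 of 13 alternatives, among them without preparation 4 and without the cells with macrophage transcripts (1.405, SE 0.37, adjusted p = 0.0360). Dusp1 was 4.81, 5.56, 4.81 and 5.30 in Q1 and 3.53, 3.75, 2.91 and 4.52 in Q4. Its groups did not overlap, yet neither the difference of 1.44 (SE 0.42, adjusted p = 0.0585) nor the slope of 0.43 (SE 0.13, adjusted p = 0.0661) passed. Ier2 was 0.87, 1.31, 0.61 and 0.82 in Q1 and 0.31, 0.36, 0.19 and 0.22 in Q4, again with no overlap (difference 0.64, SE 0.24, adjusted p = 0.155; slope 0.25, SE 0.08, adjusted p = 0.0723). Both Zfp36 and Ier2 had their highest mean in Q2, at 2.65 and 1.14, against 2.43 and 0.90 in Q1.

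Between Q1 and Q4, then, 2 of the 8 tested genes were higher in Q1, Fos and Egr2, against 2.72% of all tested genes. In 4 of the 8 (Fos, Egr2, Ier2 and Dusp1) all preparations in Q1 lay above all in Q4, which held for 4.39% of tested genes. None of the 8 passed between neighbouring quartiles, where few genes passed at all, 0.0192% of those tested for Q1 against Q2, 0.0% for Q2 against Q3 and 0.00961% for Q3 against Q4 (limma). At an unadjusted p under 0.05 there were 2 immediate early genes for the first step (Egr2 and Dusp1), 2 for the second (Egr2 and Ier2) and 1 for the third (Fos), against 5.73%, 7.37% and 6.58% of all tested genes. For Egr2 the largest step was from Q3 to Q2, 1.605 (SE 0.34, adjusted p = 0.164), and for Fos from Q4 to Q3, 1.12 (SE 0.44, adjusted p = 0.691).

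The share of detecting cells and the level within them were taken apart. Egr2 was detected in 70.2% ± 11.8 of cells in Q1, and in 61.7% ± 18.3, 26.8% ± 4.1 and 27.1% ± 12.9 in the next 3 quartiles (SD, n = 4). That is a gain of 16.4 percentage points per quartile (SE 2.60, adjusted p = 0.000264, limma on the shares). Egr2 was the 1 of 8 whose share passed, against 2.81% of all tested genes with a rising share. Within detecting cells its mean log2(FPKM + 1) was 4.79 ± 0.70 in Q1 and 3.29 ± 1.02 in Q4. Fos was detected in 83.4% ± 16.3 of cells in Q1 and 67.5% ± 15.7 in Q4 (slope 6.00 points, SE 2.12, adjusted p = 0.129). Its level in detecting cells was 6.66 ± 0.17, 6.15 ± 0.35, 6.27 ± 0.35 and 4.95 ± 0.67 from Q1 to Q4, with the lowest preparation of Q1 (6.46) above the highest of Q4 (5.598). With detection set at 5 or at 20 FPKM, the share of cells with Fos also passed. Zfp36 was detected in 52.7% ± 19.8 of cells in Q1 and 27.1% ± 9.0 in Q4 (8.83 points, SE 2.72, adjusted p = 0.0743), which passed at 5 FPKM (10.5 points, adjusted p = 0.0209) and without preparation 4 (11.9 points, adjusted p = 0.0376). Ier2 was detected in 24.2% ± 11.6 and 8.19% ± 2.45 (6.28 points, SE 2.01, adjusted p = 0.0906). Egr1 was detected in 85.7% ± 6.4 of cells in Q1 and 87.2% ± 9.1 in Q4.

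**Figure D2:**
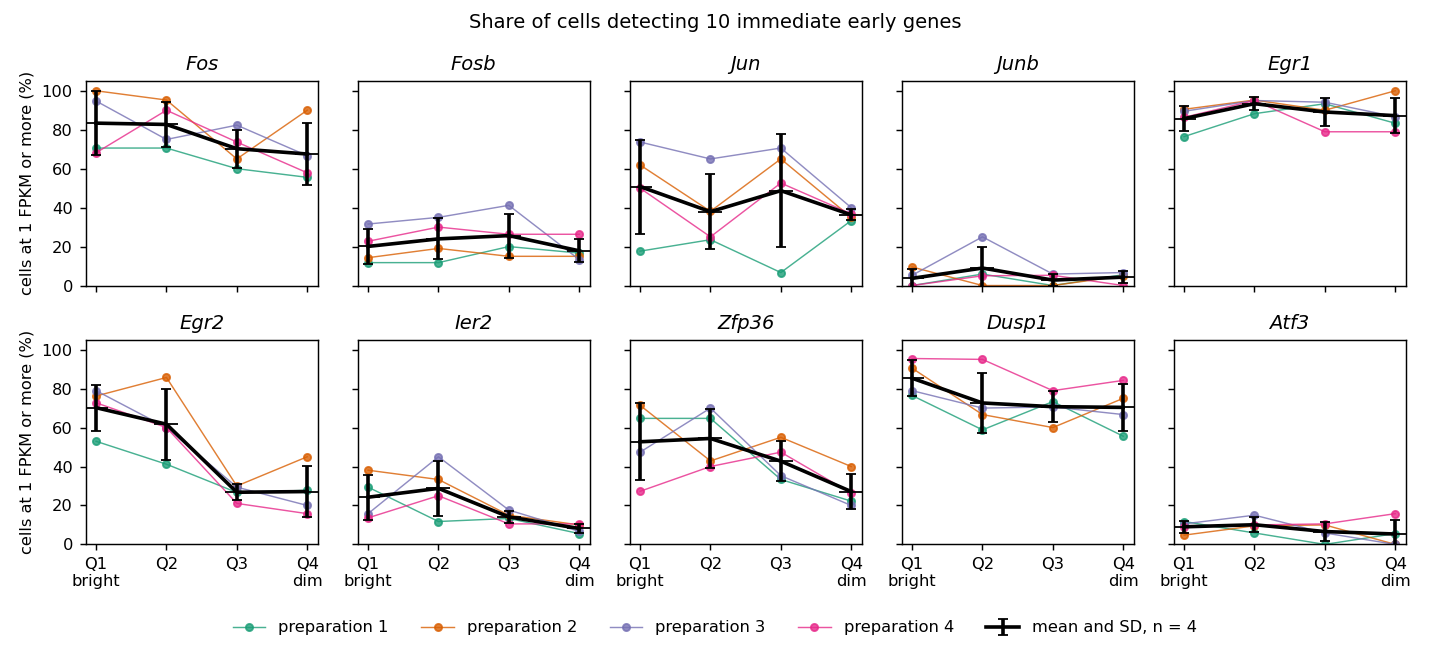
Share of cells with at least 1 FPKM of each gene, in percent, by EGFP quartile, with the 4 preparations as coloured points and their mean and SD in black. Egr2 goes from 70.2% in Q1 to 27.1% in Q4, while Egr1 stays near the top of the scale in all quartiles and Junb near the bottom.

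Differences between preparations passed for 2 of the 8 genes, against 26.9% of all tested genes (limma F test over preparations). Jun was at 0.76, 1.24, 1.99 and 1.13 in preparations 1 to 4 (F = 5.59, adjusted p = 0.0251), highest in preparation 3. Egr1 was at 5.91, 6.36, 5.74 and 5.09 (F = 5.51, adjusted p = 0.0261), lowest in preparation 4. Without preparation 1, which had the fewest genes per cell, neither passed, and the count over all genes fell from 2804 to 2. The call of Jun was also lost without preparation 3 and after median centring, and that of Egr1 without preparation 2 or 4. A preparation is 1 set of mice and 1 run, so animals, chip and depth cannot be told apart. Mean relative sequencing depth was 1.05, 0.85, 1.02 and 1.19 in preparations 1 to 4, and its part in these differences was not tested. The other 6 genes had adjusted p from 0.101 (Egr2) to 0.527 (Ier2), but Fosb and Zfp36 passed after median centring (adjusted p = 0.0327 and 0.0137) and Fos without preparation 3 (adjusted p = 0.0478).

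The number of the 10 genes found in a cell together was also counted. The mean number at 1 FPKM or more from Q1 to Q4 was 4.85 ± 0.68, 4.74 ± 0.71, 3.98 ± 0.52 and 3.51 ± 0.46 (SD, n = 4). At least 5 of the 10 were present in 57.9% ± 17.0 of cells in Q1 and 24.5% ± 10.7 in Q4. No test was run on these counts, since they sum genes already tested. Over all cells the count ran from 0 to 10 with a median of 4. All 6 cells with 9 or 10 of the genes belonged to the 9 cells with macrophage transcripts, and the highest count among the other 291 cells was 8. Mean genes detected rose from 5064 in cells with 2 of the 10 genes to 5895 in cells with 6. It was 5497 in the 11 cells with 7 and between 6042 and 6470 in the few cells with 8 to 10. The part of depth in the count was not tested.

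**Figure D3:**
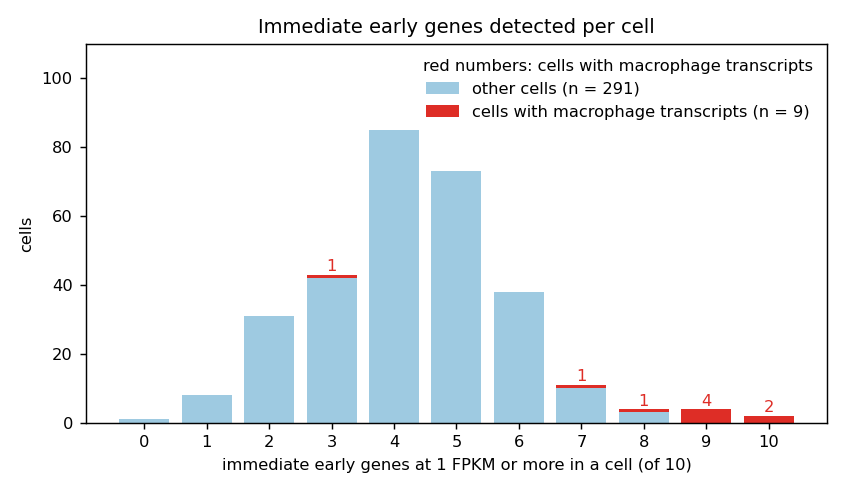
Number of cells (vertical axis) by how many of the 10 genes stood at 1 FPKM or more (horizontal axis), with the 9 cells with macrophage transcripts in red. The counts of 9 and 10 genes are made up of red cells, 4 and 2 of them, and the most common count is 4, in 85 cells.

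From cell to cell the 10 genes varied together only weakly. Spearman's rho was taken over the cells of each preparation and averaged over the 4 preparations. It is given as a description without a p, since the cells of a preparation share animals, chip and depth. The median over the 45 pairs was 0.0923, the range was -0.0516 to 0.247, and 43 pairs were above 0. Fos and Dusp1 were the closest pair (0.321, 0.226, 0.355 and 0.0861 in preparations 1 to 4), with Dusp1 detected in 79.1% of the 230 cells with Fos and 62.9% of the 70 without. Jun and Atf3 (0.189) and Jun and Zfp36 (0.174) came next. The AP-1 partners Fos and Jun were at 0.0923, from -0.173 in preparation 1 to 0.290 in preparation 3. Egr1 and Egr2 were at 0.08 in the plot of pairs.

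Much of this co-variation lay in preparation 3 and in few cells. The median over pairs was 0.0452, 0.0506, 0.220 and 0.0797 in preparations 1 to 4. Without the 9 cells with macrophage transcripts it became 0.0416, 0.0506, 0.0410 and 0.0127, and the median over preparations and pairs fell to 0.0329, with 35 of 45 pairs above 0. Without preparation 3 it was 0.0589. Fos and Dusp1 remained the closest pair at 0.218. The median rho of a gene with the other 9 went from 0.137 to 0.0093 for Atf3, from 0.107 to 0.0139 for Fosb and from 0.135 to 0.0950 for Dusp1. With the mean of each preparation and quartile taken off, the median over pairs was 0.0642, and Fos with Egr2 went from 0.138 to -0.0331. With genes detected per cell partialled out it was 0.0912. Within quartiles 1 to 4 the median was 0.0380, 0.0727, 0.111 and 0.123. These quartile values include the 9 cells with macrophage transcripts and were not computed without them. In sparse counts like these, with 15 to 22 cells per preparation and quartile, a rho of this size is weak.

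**Figure D4:**
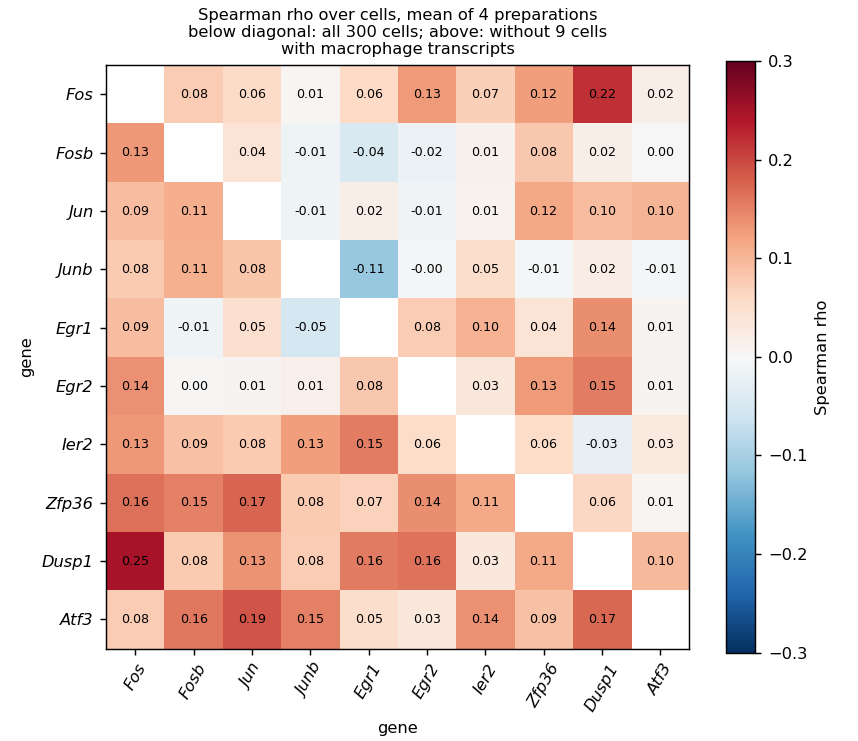
Spearman's rho between pairs of the 10 genes over cells, averaged over 4 preparations, with all 300 cells below the diagonal and without the 9 cells with macrophage transcripts above it. Fos with Dusp1 is the strongest cell on both sides, 0.25 and 0.22. Most pairs of Fosb, Junb and Atf3 pale above the diagonal, but Junb with Egr1 goes from -0.05 to -0.11.

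Related genes were followed in 5 lists. The lists were chosen with earlier results of these data known, so the number of calls in a list may follow from that choice. Genes at the output and feedback end of ERK signalling held the most calls of the 5 lists. Of 13 tested, 7 rose towards bright cells and 0 fell, while 3.77% of all tested genes rose and 0.74% fell. The median slope was 0.31, against 0.03 for all tested genes. Dusp6, an ERK phosphatase, rose by 1.44 per quartile (SE 0.13, adjusted p = 1.06e-07) and Etv5, an ETS factor needed for stem cell self-renewal, by 1.30 (SE 0.13, adjusted p = 4.89e-07). The receptor signalling inhibitors Spry4 (0.83) and Spry2 (0.75) and the receptor gene Epha2 (0.46) also rose. Epha2 lost its call in 2 of 13 alternatives, for the log2 of mean FPKM and without preparation 3. Spry1 (0.27) and Dusp5 (0.22) rose too, but each lost its call in 10 of 13 alternatives. Etv4 had a slope of 0.20 (adjusted p = 0.128). From the receptors to SRF, 2 of 22 rose and 0 fell, with a median slope of 0.09. These were the GDNF receptor genes Gfra1 (1.13, SE 0.12, adjusted p = 1.18e-06) and Ret (0.65, SE 0.11, adjusted p = 0.000471). Kit, the receptor of differentiating spermatogonia, had a slope of -0.44 (adjusted p = 0.0710), and passed as falling with detected genes as a covariate and after median centring.

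Other primary response genes did not pass. Of 28 tested, 0 rose and 0 fell (limma), 12 had an unadjusted p under 0.05, 11 of these towards bright cells, and the median slope was 0.12. Of all tested genes 17.7% had an unadjusted p under 0.05, and 73.7% of those had slopes towards bright cells. Klf6, a zinc finger factor, was at 2.63, 2.43, 2.00 and 1.49 from Q1 to Q4 (slope 0.38, SE 0.12, adjusted p = 0.0591). Nfkbia, the inhibitor of NF-kappa-B, had a slope of 0.30 (adjusted p = 0.0648), the nuclear receptor gene Nr4a1 0.38 (0.0710) and Arc 0.30 (0.0920). Klf6 and Nfkbia passed without preparation 1 and without the cells with macrophage transcripts, and Nr4a1 passed without preparation 4.

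Heat shock genes had a median slope near that of all tested genes, which was 0.03. Of 15 tested, 1 rose and 0 fell, and the median slope was 0.01. Dnajb1, a co-chaperone of HSP70, was the one that rose (0.43, SE 0.12, adjusted p = 0.0369), but 10 of 14 alternatives took that call away, among them each preparation left out. Hspa1a, the inducible HSP70, was detected in 45 cells and had a slope of -0.14 (adjusted p = 0.212). Hsp90aa1 was present in all 300 cells at 8.33, 8.34, 8.24 and 8.32 from Q1 to Q4. In the integrated stress response list 0 of 7 passed in either direction (limma), and the median slope was 0.07. In that list 1 gene had an unadjusted p under 0.05 (Trib3, slope -0.17, adjusted p = 0.154, limma), and it passed as falling after median centring. Every quartile went through the digestion, so slopes over quartiles do not measure its effect. Whether receptor signalling or digestion set the levels of the immediate early genes was not tested. The lists are not of equal size or mean level.

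**Figure D5:**
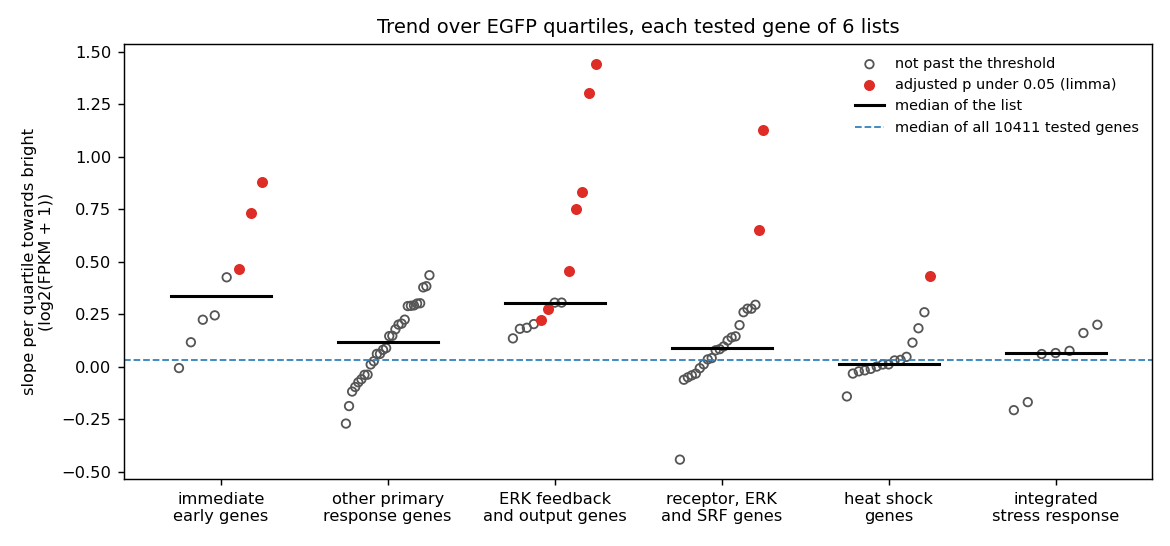
Slope per quartile towards bright cells on the log2(FPKM + 1) scale for each tested gene of 6 lists, ordered within a list by slope, with genes past the threshold in red, the list's median as a black bar and the median of all 10411 tested genes as a dashed line. The medians are 0.34 for the immediate early genes, 0.31 for ERK feedback and output genes and 0.01 for heat shock genes.

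The same lists were set against a score of the 8 tested genes in single cells, the mean of their standardised values. ERK feedback and output genes had a median rho with the score of 0.186, with 13 of 13 above 0, other primary response genes 0.101 (23 of 28), receptor to SRF genes 0.0299 (13 of 22) and heat shock genes 0.00661 (8 of 15). For the integrated stress response it was 0.0423 (5 of 7), and for all other tested genes 0.00667. Taking off the mean of each preparation and quartile brought the ERK outputs to 0.0489, other primary response genes to 0.0511 and heat shock genes to 0.0117. A large part of the first value thus goes with the quartiles. Without the 9 cells with macrophage transcripts the values were 0.179 for ERK outputs, 0.0698 for other primary response genes and -0.0145 for heat shock genes. Gene by gene, without the score, the median rho of ERK outputs with the members was 0.0470, that of other primary response genes 0.0553 and that of heat shock genes 0.00435.

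Of all other tested genes with regular names, the 10 most like the score over the 300 cells began with Dusp6 (rho 0.453, from 0.387 to 0.556 over preparations) and Etv5 (0.440, from 0.355 to 0.542). Next were the actin gene Actb (0.366), the AKT co-activator gene Tcl1 (0.365), Ppfibp2 (0.351) and the transcription factor gene Bhlhe41 (0.343). Gfpt2, an enzyme of the hexosamine pathway (0.341), Rasgrp2, an exchange factor of small GTPases (0.335), the phosphatase subunit gene Ppp1ca (0.329) and the homeobox gene Hhex (0.324) completed them. All 10 rose towards bright cells, with slopes from 0.18 for Actb to 1.71 for Tcl1, so part of the likeness is shared with the quartiles. The call of Actb was lost in 4 of 14 alternatives (after median centring, without the block and without preparation 3 or 4) and that of Ppp1ca in 5 of 14 (with the covariate, after centring, without the block and without preparation 2 or 3). Gfpt2 lost its call with the covariate and Ppfibp2 for the log2 of mean FPKM. With quartile means taken off, Dusp6 was at 0.292, Etv5 at 0.238, Actb at 0.233 and Hhex at 0.144. Within the score, Dusp1 (0.50) and Fos (0.499) were closest to it and Fosb farthest (0.328), values that include each gene's own part.

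The values sum reads over each gene, and the SMARTer kit does not mark strand. Exons of Jun overlap the antisense gene Junos, those of Junb overlap Prdx2, those of Zfp36 an antisense gene and those of Dusp1 a few bases of Ergic1, so reads there cannot be told apart. Fos, Fosb, Egr1, Egr2, Ier2 and Atf3 had no such overlap. Jun (chromosome 4, 95049034 to 95052222) and Ier2 (chromosome 8, 84661331 to 84662852) consist of 1 exon. Junb (chromosome 8, 84974484 to 84978718) has 2 transcripts, and its coding transcript has 1 exon. Fosb lies on chromosome 7 from 19302696 to 19310051, Egr1 on chromosome 18 from 34859823 to 34864984 and Atf3 on chromosome 1 from 191170296 to 191218039.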

How the data were processed

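The authors' deposited table holds FPKM values for 23354 gene rows and 300 cells. The unit is not in its header and was inferred: the submitters' processing notes list Cufflinks, beside Picard, FastQC and TopHat, with no version, and the builds GRCm38 and mm10. No raw counts were used, so no count model was applied. Summed FPKM per cell lay between 348300 and 683000, and 0 columns lacked a sample. The number in each cell's title was read as the preparation, as the labels name 4 preparations. The n of 4 and the block rest on this reading. The limma p-values rest on the scatter of the 16 means that remains once quartile and preparation are fitted. That scatter includes the sampling of cells within each mean.

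Mean log2(FPKM + 1) per preparation and quartile gave 16 means, fitted with limma 3.58.1 in R 4.3.3 (quartile plus preparation as a block, variance trend, robust), for the 10411 genes that reached 1 FPKM in 30 or more cells. The pseudocount of 1 understates changes of low genes. Adjusted p-values are Benjamini-Hochberg values, threshold 0.05. The fit of the trend was tried on the same cells with quartile labels shuffled within preparations and known slopes added to some genes. Same-numbered means come from the same animals; their deviations correlated at 0.0112 to 0.360 over 24 pairs (median 0.129). Relative depth was recovered from steps in low FPKM values, with 96.9% of cell pairs within 0.1 on the log2 scale. Spearman correlations and shares were computed in Python 3.11.15 with scipy 1.17.1.

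The members, the lists and the tests were chosen with earlier results of these data known. Named genes are the 10 members, the 10 genes of highest rho with the member score (predicted genes and clone codes left out), and per list up to 5 of smallest p and 4 of highest rho. Alternatives were other pseudocounts, filters, scalings, detection thresholds and covariates, the fit without the block, and leaving out each preparation or the cells with macrophage transcripts. Cells with at least 4000 genes (279) were an alternative for rho. Positions are from GENCODE vM21 and promoter sequence from RefSeq.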

Additional observations from a re-analysis of the deposited data

Results flagged for a closer look

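Of 40 groups of 4 preparation means, 1 per gene and quartile, 2 held a preparation far from the other 3 by Dixon's test at the 95% level, and chance alone gives about 1 in 20, so 2 would be met by chance. Jun in preparation 3 in Q2 was at 2.26 on the log2(FPKM + 1) scale, with the other 3 between 0.74 and 0.93 (gap over range 0.869). Junb in preparation 3 in Q2 was at 0.86, with the other 3 between 0.00 and 0.14 (0.837). Preparation 3 holds 6 of the 9 cells with macrophage transcripts, in which 22.2% of all Jun FPKM and 55.5% of all Junb FPKM lie, and the part of these cells in the 2 values was not tested.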

How the results depend on the processing

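Junb and Atf3, detected in 15 and 24 cells, could not be tested with the filter. For the trend, 470 genes passed, against 232 with at least 1 FPKM in 150 cells, 197 with detected genes as a covariate, 113 for the log2 of mean FPKM, 274 without a filter, 177 with no replicate block (preparation) and 176 to 354 without 1 preparation. For Q1 against Q4, 338 passed, against 173, 135, 80, 177 and 99 in the same order, and 137 to 270 without 1 preparation. For the share of detecting cells, 325 passed, against 122 with the covariate, 77 with no replicate block, 122 at 20 FPKM and 104 to 161 without 1 preparation. For preparations, 2804 became 1185 after median centring, 1657 without a filter and 2 to 3493 without 1 preparation, the lowest without preparation 1.
Members past the threshold in the trend (3) became 1 with the stricter filter (Fos; Egr2 and Zfp36 not tested there), and 1 each with the covariate and the log2 of mean FPKM (Egr2). For Q1 against Q4 (2) they became 1 with the stricter filter (Fos), and 1 each with the covariate, the log2 of mean FPKM, no replicate block and without preparation 3 (Egr2). For preparations (2) they became 0 without a filter, 3 after median centring (Fosb, Egr1 and Zfp36) and 0 to 2 without 1 preparation (Fos and Egr1 without preparation 3). For the share (1) they became 3 at 5 FPKM, 2 at 20 FPKM and 2 without preparation 4. The block changed no other call of a member than those of Fos in Q1 against Q4 and Zfp36 in the trend (adjusted p 0.113 without it).
For neighbouring quartiles, Q1 against Q2 went from 2 genes to 1 with the covariate, 0 with the stricter filter, the log2 of mean FPKM, no filter and no replicate block, and 0 to 1 without 1 preparation. Q2 against Q3 went from 0 to 1 without preparation 2. Q3 against Q4 went from 1 to 2 at a pseudocount of 0.1, 0 at a pseudocount of 10, for the log2 of mean FPKM, after median centring, with no filter and with no replicate block, and 0 to 2 without 1 preparation.
Signs of members turned only for slopes and differences not past the threshold. The slope of Fosb was 0.0068 at a common FPKM sum, 0.040 at a pseudocount of 0.1 and -0.041 to 0.018 without 1 preparation. Its difference was -0.072 with the covariate, -0.14 after centring and -0.092 to 0.11 without 1 preparation. Its share slope was -0.32 points with the covariate, -1.25 at 5 FPKM and -0.94 to 1.45 without 1 preparation. The share slope of Jun was -0.15 at 20 FPKM. That of Egr1 was 1.53 with the covariate, 0.85 at 5 FPKM, 4.41 at 20 FPKM, 0.17 without the cells with macrophage transcripts and -1.32 to 0.81 without 1 preparation. Of 26 list genes named by the rule but not past the threshold in the trend, 6 changed sign and 5 passed in at least 1 alternative.
The median rho of all other genes with the members was -0.0018 with genes detected partialled out, that of ERK outputs 0.0267 less the quartile means, that of receptor to SRF genes -0.0081 less the quartile means and 0.0020 with genes detected partialled out, and that of heat shock genes -0.0065 without the cells with macrophage transcripts. The cause of these shifts was not tested.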
